A study of Rattus norvegicus with 12 samples.

Results

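Hemoglobin and erythroid transcripts were followed in the central nucleus of the amygdala (CeA) of rats exposed to chronic intermittent ethanol (CIE) vapor or to air. They were 10 of the 37209 gene rows in the count data, taken by name, and comprised 7 hemoglobin copies (the alpha rows *Hba1* and *Hba2* and the beta rows *Hbb*, *Hbb-b1*, *LOC103694855*, *LOC103694857* and *LOC689064*) and 3 genes of heme synthesis or the red cell membrane (*Alas2*, *Slc4a1* and *Epb42*). The rows were chosen because they were already known to differ between the groups in these same libraries, so their group difference is given below as a description and carries no test of its own. All 10 rows had enough counts to enter the fit, which covered 20944 rows.

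RNA came from 12 male wild type Sprague Dawley rats aged 14 to 16 weeks, with 6 in the CIE group (rats 1 to 6) and 6 in the Control group (rats 7 to 12). CIE rats inhaled ethanol vapor daily, alternating with air, for several weeks and were killed as the last exposure ended, while still intoxicated. The Control group received no ethanol vapor, only air. Each library was poly-A RNA from the CeA of 1 rat, punched from frozen sections of 1 hemisphere, and the sources used here describe decapitation under isoflurane but no clearing of blood from the vessels. Blood was drawn from the tail for alcohol readings during the vapor weeks. The 11 listed central amygdala and neuron markers (among them *Crh*, *Nts* and *Snap25*) were all present and passed the filter. Total counts per rat ranged from 61978486 to 78441691 in CIE and from 39082548 to 95647601 in Control. The CIE rats carry the lower numbers, so an effect of their order and an effect of CIE cannot be told apart.

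Hemoglobin is a tetramer of alpha and beta globin chains, each holding a heme group that binds oxygen. Red cell precursors transcribe the globin genes at very high levels together with *Alas2*, the erythroid form of the first enzyme of heme synthesis, and with genes of the red cell membrane such as *Slc4a1* (band 3, the anion exchanger) and *Epb42* (protein 4.2, which links band 3 to the membrane skeleton). Young red cells still carry these messages in the circulation, and brain tissue holds blood within its vessels. Hemoglobin messages have also been described in neurons and glia. In a tissue punch, fewer cells of a type and less RNA per cell cannot be told apart.

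Rat globin genes lie in clusters of near-identical copies. In RefSeq's GRCr8 annotation the alpha genes share chromosome 10 with *Hbq1b* and *Hbz*, and the beta genes share chromosome 1. The name *Hba1* is a synonym of both *Hba-a1* and *Hba-a2* there, and *Hba2* is a synonym of *Hba-a2* only. *LOC689064* carries the gene number of *Hbb-bs*. *LOC103694855*, *LOC103694857* and *Slc4a1* had no entry in the sequence table, and the start listed for *Alas2* lies inside the span of the gene, so its window is not printed. The 250 bases before the RefSeq start of the copies that could be matched are printed because some of the copies share most of this sequence. *Epb42* is printed beside them as the gene whose groups overlapped. Capitals mark 5 promoter motifs searched on both strands, namely CCAAT (the CCAAT box, which reads ATTGG on the other strand), CACCC (the motif of Klf factors), TATAAA (the TATA box), and AGATAA with its variant TGATAA (forms of the GATA factor motif). Sequences are from GRCr8 and read 5′ to 3′ along the gene, for *Hba1* (*Hba-a1*, chr10:15842581-15842830, minus strand), *Hba2* (*Hba-a2*, chr10:15829139-15829388, minus strand), *Hbb* (chr1:167663722-167663971, minus strand), *Hbb-b1* (chr1:167643521-167643770, minus strand), *LOC689064* (*Hbb-bs*, chr1:167631631-167631880, minus strand) and *Epb42* (chr3:128451684-128451933, minus strand).
Hba1: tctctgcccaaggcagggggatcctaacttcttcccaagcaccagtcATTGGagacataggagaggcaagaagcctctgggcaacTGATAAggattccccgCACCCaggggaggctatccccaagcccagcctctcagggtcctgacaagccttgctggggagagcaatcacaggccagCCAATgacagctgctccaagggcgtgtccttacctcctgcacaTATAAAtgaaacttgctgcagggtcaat
Hba2: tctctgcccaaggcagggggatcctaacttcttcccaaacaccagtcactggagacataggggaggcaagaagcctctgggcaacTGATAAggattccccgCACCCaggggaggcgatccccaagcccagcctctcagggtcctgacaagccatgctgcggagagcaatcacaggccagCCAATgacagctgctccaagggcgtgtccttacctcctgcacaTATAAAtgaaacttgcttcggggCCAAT
Hbb: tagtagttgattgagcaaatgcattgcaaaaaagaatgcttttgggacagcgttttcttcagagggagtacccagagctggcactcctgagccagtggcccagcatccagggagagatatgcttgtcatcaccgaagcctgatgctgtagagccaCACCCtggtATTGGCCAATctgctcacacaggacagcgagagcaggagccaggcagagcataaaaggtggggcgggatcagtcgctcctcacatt
Hbb-b1: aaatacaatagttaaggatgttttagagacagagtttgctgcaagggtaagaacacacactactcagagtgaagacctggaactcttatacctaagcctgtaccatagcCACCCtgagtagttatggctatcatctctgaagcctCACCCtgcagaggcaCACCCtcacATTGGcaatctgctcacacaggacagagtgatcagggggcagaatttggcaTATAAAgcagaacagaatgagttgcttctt
LOC689064: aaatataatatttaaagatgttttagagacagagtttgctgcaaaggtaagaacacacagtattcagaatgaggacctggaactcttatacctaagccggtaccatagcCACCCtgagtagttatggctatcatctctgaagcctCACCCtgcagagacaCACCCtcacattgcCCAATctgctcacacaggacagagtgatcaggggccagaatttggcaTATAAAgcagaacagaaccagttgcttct
Epb42: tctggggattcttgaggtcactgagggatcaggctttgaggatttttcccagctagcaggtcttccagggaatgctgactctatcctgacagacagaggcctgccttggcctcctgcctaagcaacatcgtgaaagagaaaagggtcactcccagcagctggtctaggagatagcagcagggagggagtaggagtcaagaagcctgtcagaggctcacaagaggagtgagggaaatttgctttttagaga

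The windows of *Hba1* and *Hba2* were identical at 96.4% of aligned bases, and those of *Hbb-b1* and *LOC689064* at 93.6%. *Hbb* and *Hbb-b1* shared 60.9%, against 51.0% for *Hba1* and *Hbb-b1*, which is also the value for *Hbb-b1* and *Epb42*. Both alpha windows held TGATAA 165 bases before the start, CACCC at 149, CCAAT at 71 and TATAAA at 28. The windows of *Hbb-b1* and *LOC689064* each held 3 CACCC motifs, at 141, 105 and 90 bases, with 1 CCAAT and 1 TATAAA. *Hbb* held 1 CACCC at 95 and a pair of CCAAT motifs, 1 on each strand, at 86 and 81. The *Epb42* window held none of these letters, and that of *Alas2*, whose groups did not overlap, held AGATAA at 136 and none of the other motifs. No matches overlapped. Among all 33469 promoter windows of this length, 34.0% held CCAAT, 49.2% CACCC, 12.9% TATAAA, 10.3% AGATAA and 7.97% TGATAA, so that single matches are common.

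The 7 hemoglobin copies were all lower in CIE rats, by 3.05 to 3.79 times, and no CIE rat reached the lowest Control rat for any of them. Their counts, summed and scaled to counts per 1000000 (CPM, on library sizes adjusted by the TMM method), were 136, 131, 228, 422, 163 and 275 CPM in CIE rats 1 to 6 and 540, 650, 999, 944, 561 and 667 CPM in Control rats 7 to 12. CIE rat 4 was the highest of its group and Control rat 7 the lowest of the other. Of the 10 members, 9 did not overlap between the groups (all but *Epb42*), and 116 of all 20944 rows tested (0.554%) were lower in CIE in the same way. At 5% false discovery rate (FDR, edgeR) 8 of the 10 were called lower and none higher, the exceptions being *Alas2* and *Epb42*, beside 0.258% of all rows called lower and 0.363% called in either direction. Before adjustment, 9 had a p below 0.05, beside 8.31% of all rows in either direction. As the members were picked on this contrast, nothing is read from these counts. The median log2 fold change (CIE minus Control) was -1.84 for the hemoglobin copies and -1.79 for the 10 members, against 0.00 over all rows tested.

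**Figure D1:**
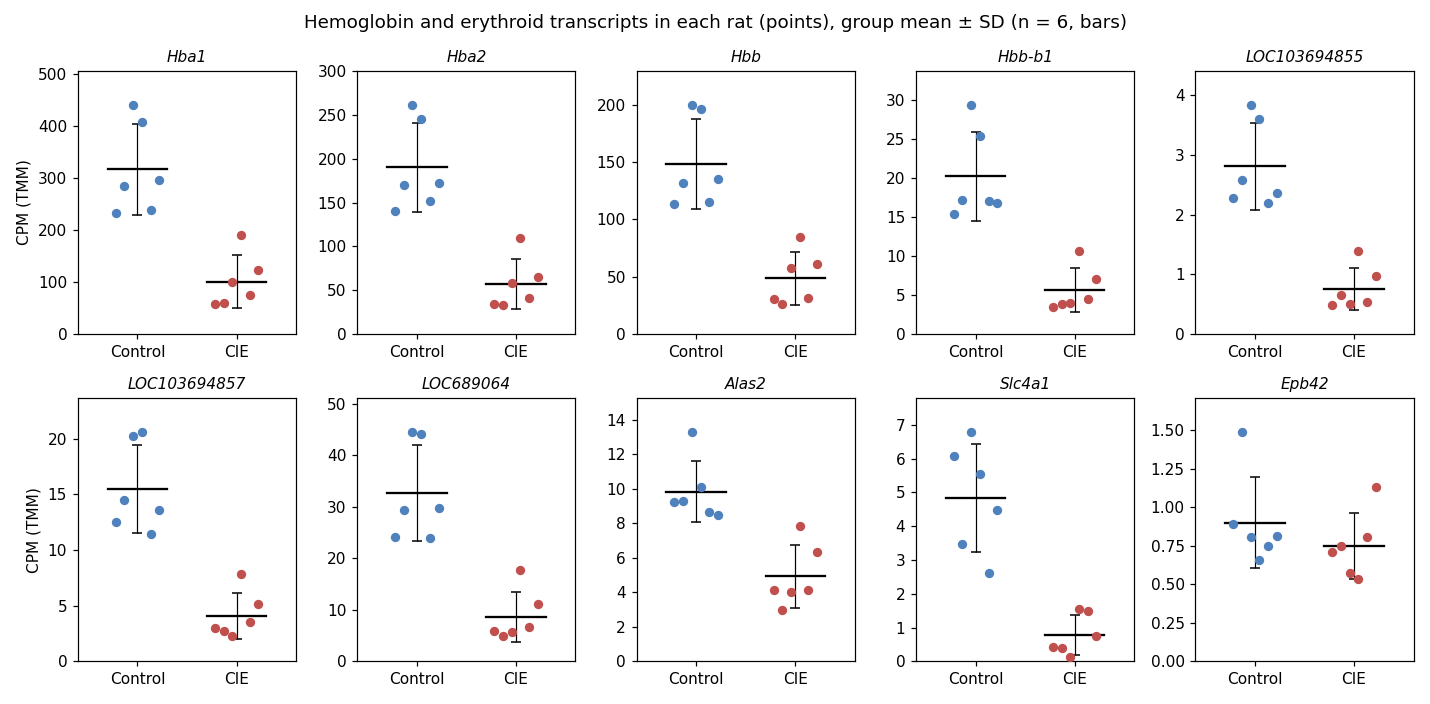
Each panel plots 1 of the 10 transcripts in CPM on a linear axis from 0, with a point for each rat and bars for the mean ± SD of 6 Control and 6 CIE rats. The groups are apart in 9 panels and overlap for *Epb42*. In the hemoglobin panels CIE rat 4 is the highest of its group and rat 6 the next, while the order of the other CIE rats varies.

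*Hba1*, an alpha chain row, had 58.2, 59.8, 100.3, 190, 75.1 and 124 CPM in CIE rats 1 to 6 and 233, 284, 441, 408, 239 and 298 CPM in Control rats 7 to 12. Means were 101 ± 50.4 CPM (SD, n = 6) in CIE and 317 ± 87.4 CPM (SD, n = 6) in Control, a log2 fold change of -1.65 (SE 0.28). The highest CIE rat thus stayed below the lowest Control rat. *Hba2*, the other alpha row, ran from 33.1 to 109 CPM in CIE and from 140 to 261 CPM in Control, with means of 57.0 ± 28.7 and 190 ± 50.7 CPM (SD, n = 6 each) and a log2 fold change of -1.74 (SE 0.28).

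*Hbb*, the beta row with the most counts, had 30.7, 26.3, 57.4, 85.0, 31.4 and 61.1 CPM in CIE rats 1 to 6 and 113, 132, 200, 196, 115 and 135 CPM in Control rats 7 to 12. Its log2 fold change of -1.61 (SE 0.28) was the smallest in size of the 7 copies. Without CIE rat 3 it was -1.66, and that of *Hba1* was then the smallest, at -1.64. In the other beta rows the differences were -1.84 (SE 0.28) for *Hbb-b1*, -1.88 (SE 0.28) for *LOC103694855*, -1.92 (SE 0.28) for *LOC103694857* and -1.92 (SE 0.31) for *LOC689064* on the log2 scale. *LOC689064* averaged 8.62 ± 4.94 CPM in CIE and 32.7 ± 9.35 CPM in Control (SD, n = 6 each). *LOC103694855* was counted least of the beta rows, at 32 to 93 counts per CIE rat and 85 to 266 per Control rat, or 0.757 ± 0.356 and 2.80 ± 0.721 CPM. The differences of the beta copies thus lay between -1.92 and -1.61. All copies were counted in the same rats. The SE of a row is therefore not the error of a difference between copies, which was not tested. Reads shared by copies may be split or dropped by the counting, whose settings for such reads are not given in the sources used here, so a single row is less certain than their sum. When the alpha rows were summed before the fit, the difference was -1.68 on the log2 scale, and that of the 5 summed beta copies was -1.70.

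The spread among CIE rats, relative to the mean, was wider than among Control rats, a difference that was not tested. The coefficient of variation (SD over mean) of summed hemoglobin CPM was 49.2% in CIE and 27.1% in Control. For single copies it ranged from 47.0% to 57.3% in CIE and from 25.7% to 28.6% in Control. The highest CIE rat had 3.27 times the *Hba1* level of the lowest, against 1.89 times among Control rats.

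The balance between the alpha and beta chains, and between the 2 alpha rows, was far steadier than their level. Alpha rows made up 57.6% to 62.8% of the alpha and beta counts in CIE rats and 58.5% to 60.2% in Control rats. The part of the alpha counts that fell to *Hba2* was 34.5% to 37.3% in CIE and 36.6% to 38.8% in Control. Beta counts, in the alpha share above and in the shares below, were taken over 6 rows. The reason is that *LOC100134871*, a beta-like row listed in RefSeq as *Hbbl1* and not one of the 10 members, also took many of them. These are shares of counts and not of molecules per length.

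CIE rat 3 stood apart in how its beta counts were divided. *Hbb* took 3712 of its 6080 beta counts, or 61.1% (95% exact Clopper-Pearson interval 59.8% to 62.3%, which covers counting error only), whereas in the other 11 rats it took 40.0% to 45.7%. In Control rats this share lay between 42.3% and 43.6%. *LOC100134871* took 25.7% in rat 3 (interval 24.6% to 26.8%) and 35.6% to 40.6% elsewhere. *LOC689064* took 5.97%, *LOC103694857* 2.47% and *Hbb-b1* 4.31% in rat 3, against 8.18% to 9.79%, 3.85% to 4.72% and 5.001% to 6.54% in the other 11 rats. Without rat 3 the log2 fold change of *Hbb* was -1.66 and that of *LOC103694857* was -1.80, and 8 members were again called.

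**Figure D2:**
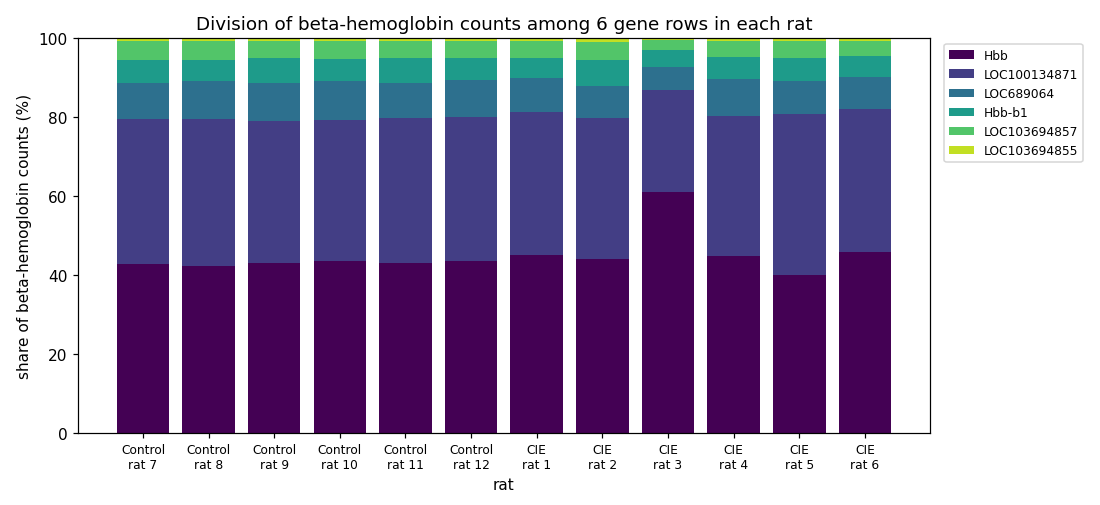
Stacked bars give, for each of the 12 rats, the percent of beta-hemoglobin counts that fell to each of 6 gene rows, from 0 to 100%. The Control bars are nearly alike, and CIE rat 3 has the largest *Hbb* part (61.1%) with smaller parts for *LOC100134871*, *LOC689064* and *LOC103694857*.

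*Alas2*, the erythroid aminolevulinate synthase, differed less than the globins. Its levels were 4.15, 2.98, 4.004, 7.86, 4.16 and 6.34 CPM in CIE rats 1 to 6 and 9.24, 9.28, 13.3, 10.1, 8.63 and 8.49 CPM in Control rats 7 to 12. The groups did not overlap, although CIE rat 4 came within 1 CPM of Control rat 12. Means were 4.92 ± 1.81 and 9.83 ± 1.77 CPM (SD, n = 6 each), with a log2 fold change of -0.998 (SE 0.208). Set against hemoglobin, *Alas2* was the more plentiful in CIE, at 17.5 to 30.4 counts per 1000 hemoglobin counts (median 22.9), compared with 10.7 to 17.1 (median 13.8) in Control. Hemoglobin counts, here and below, are those of the 7 copies, without *LOC100134871*.

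*Slc4a1*, which encodes band 3, had the largest difference of the 10. Its raw counts were 28, 23, 8, 104, 103 and 60 in CIE rats 1 to 6 and 457, 335, 471, 329, 101 and 336 in Control rats 7 to 12. Control rat 11, the library with the fewest counts in all, held as few as CIE rats 4 and 5, but after scaling to CPM the groups were apart, at 0.124 to 1.55 CPM in CIE and 2.61 to 6.78 CPM in Control. Means were 0.785 ± 0.599 and 4.83 ± 1.59 CPM (SD, n = 6 each), 6.16 times lower in CIE with a log2 fold change of -2.62 (SE 0.47). The spread was wide, with a coefficient of variation of 76.4% in CIE. Per 1000 hemoglobin counts *Slc4a1* ran from 0.541 to 9.10 in CIE (median 3.04) and from 4.66 to 11.2 in Control (median 6.30). These ratios overlapped through CIE rat 5 alone, as the other CIE rats ran from 0.541 to 3.66.

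*Epb42*, whose protein binds band 3, overlapped between the groups. It had 0.707, 0.750, 0.572, 0.536, 0.806 and 1.13 CPM in CIE rats 1 to 6 and 0.890, 1.49, 0.806, 0.657, 0.749 and 0.816 CPM in Control rats 7 to 12. Only CIE rats 3 and 4 lay below every Control rat. The log2 fold change was -0.27 (SE 0.25), and without Control rat 8 it was -0.05. *Epb42* is thus the 1 member that neither separated the groups nor followed the globins.

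To ask whether the transcripts varied together from rat to rat, which the choice of members did not use, log2 CPM of *Hba1* was correlated with 4 other members inside each group, with 6 rats in a group and 8 relations in all. P-values are from two-sided exact permutation tests and are followed by their Benjamini-Hochberg adjusted values over the 8. *Hba1* and *Hbb* rose and fell together in CIE (Pearson r = 0.97, exact permutation p = 0.00278, adjusted 0.0111) and in Control (r = 0.99, exact permutation p = 0.00139, adjusted 0.0111). Spearman's rho was 0.94 in CIE (exact permutation p = 0.0167, adjusted 0.0667) and 1 in Control (exact permutation p = 0.00278, adjusted 0.0222). Without the 2 rats farthest from the median of *Hba1*, r was still 0.97 in CIE and 0.9996 in Control. The smallest p that 6 rats allow is 0.00139 for Pearson's r and 0.00278 for Spearman's rho, the latter reached by the rho of 1.

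*Alas2* followed *Hba1* in CIE rats by Pearson's r, at 0.90 (exact permutation p = 0.0181, adjusted 0.0481), and by rank it did not pass, with a rho of 0.71 (exact permutation p = 0.136, adjusted 0.363). Leaving out CIE rats 1 and 4 left r at 0.90. With library sizes scaled by DESeq2 size factors, or not scaled beyond the total, the adjusted p for this relation was 0.0556 and 0.0741. In Control rats r was 0.79 (exact permutation p = 0.0264, adjusted 0.0528) and rho 0.60 (exact permutation p = 0.242, adjusted 0.479), and without Control rats 9 and 10 r became -0.25, so that this relation rested on those rats. *Slc4a1* gave r = 0.37 in CIE (exact permutation p = 0.475, adjusted 0.633) with rho 0.49 (exact permutation p = 0.356, adjusted 0.479), and r = 0.58 in Control (exact permutation p = 0.225, adjusted 0.360) with rho 0.43 (exact permutation p = 0.419, adjusted 0.479). Without the same pairs of rats r was -0.11 and -0.05. *Epb42* gave r = -0.21 in CIE (exact permutation p = 0.681, adjusted 0.681) with rho -0.20 (exact permutation p = 0.714, adjusted 0.714), and r = -0.30 in Control (exact permutation p = 0.615, adjusted 0.681) with rho -0.43 (exact permutation p = 0.419, adjusted 0.479), and without those rats r was 0.37 and 0.41. With 6 rats a group, relations of this size could not be told from none.

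**Figure D3:**
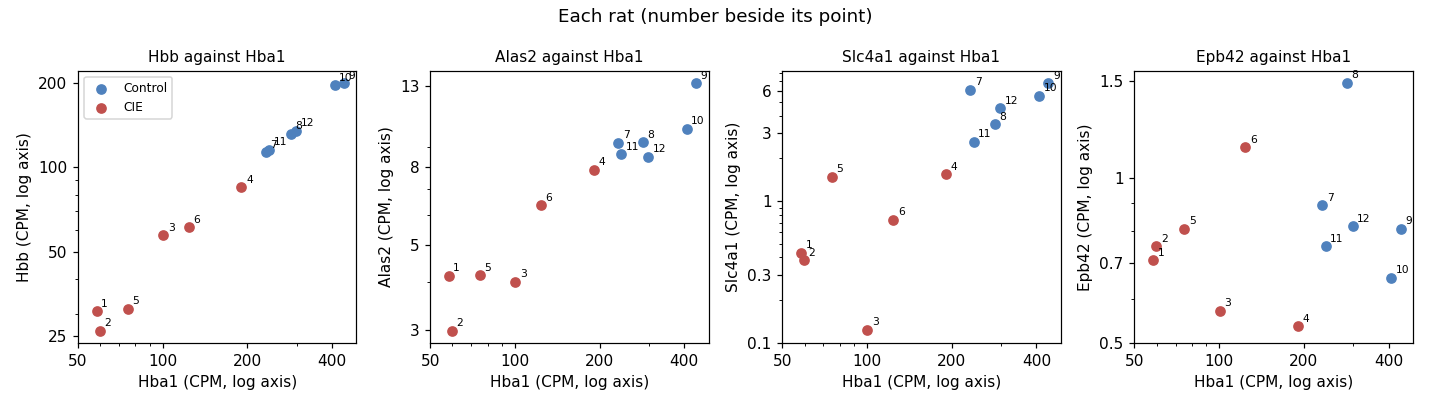
Levels of *Hbb*, *Alas2*, *Slc4a1* and *Epb42* (vertical) are plotted against *Hba1* (horizontal), both in CPM on log axes, with a numbered point for each rat. *Hbb* lies along 1 line through both groups, *Alas2* follows more loosely, and CIE rats 3 and 5 lie well apart from the others of their group for *Slc4a1*.

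After the group means were removed, log2 CPM of *Hba1* over the 12 rats was most like that of *Hba2* (r = 0.995), *Hbb* (0.97), *Hbb-b1* (0.94) and *LOC689064* (0.93), as a description with no test. *LOC103694855* (0.88), *Alas2* (0.87) and *LOC103694857* (0.85) also ranked among the 12 closest rows of all those tested. *Slc4a1* (r = 0.40) ranked 1363, and *Epb42* had r = -0.23. The closest row outside the 10 was *LOC100134871* (0.92), and after it came *Fads1* (0.90), *Bmx* (0.88), *LOC100360754* (0.87), *Tmem45al* (0.87), *Fam198b* (0.84), *Ldoc1* (0.83), *Fibin* (0.82), *LOC684792* (0.81) and *Chrna10* (0.81). The last 9 of these did not separate CIE from Control, with log2 fold changes from -0.31 for *Fam198b* to 0.47 for *Chrna10* and adjusted p of at least 0.501 by edgeR. Some were near the floor, such as *LOC100360754* (0.166 CPM in CIE, 0.182 CPM in Control) and *Chrna10* (0.218 and 0.156 CPM). These rows were picked as the highest r among all rows tested, so the size of r is no evidence of a relation.

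Genes of the same pathway were taken from lists and tested in the same fit, with p-values adjusted over all 20944 rows (edgeR's quasi-likelihood test, Benjamini-Hochberg). As the lists here and below were written with earlier results of these data known, their calls are no independent evidence. The counts of each list stand beside 0.258% of all rows called lower and 0.105% called higher. An unadjusted p below 0.05 was found in 8.31% of all rows, in either direction. Of the other globins, 4 passed the filter and 1 fell. This was *LOC100134871*, at 36.4 ± 18.2 CPM in CIE and 125 ± 30.9 CPM in Control (SD, n = 6 each), with a log2 fold change of -1.78 (SE 0.27, adjusted p = 0.0129). It had 21.4 to 67.8 CPM in CIE and 97.0 to 166 CPM in Control and so did not overlap. It is also among the genes the study selected on these libraries and is no independent evidence of direction. Globins of other tissues did not pass the test, with log2 fold changes of -0.21 (SE 0.26, adjusted p = 0.887) for *Ngb*, the neuroglobin of nerve cells, and -0.07 (SE 0.09, adjusted p = 0.880) for *Cygb*, cytoglobin. *Hbq1b*, an alpha-like gene of the same cluster, was too low for the filter, with 0, 0, 4, 7, 3 and 0 counts in CIE rats and 6, 14, 18, 46, 10 and 16 counts in Control rats (fitted without a filter, log2 fold change -2.99, SE 0.84, adjusted p = 0.284), and it is named here after its counts were seen. The rows *LOC287167*, *Hbe2* and *Hbg1* were listed at 0 in every rat. So was *Fth1*, the ferritin heavy chain that cells of every kind use, so a row listed at 0 in these data need not mean that the transcript was absent.

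The steps of heme synthesis that all cells share gave no call. None of the 8 listed enzymes passed the test in either direction, none had an unadjusted p below 0.05, and their log2 fold changes stayed between -0.14 and 0.07. Examples are *Cpox*, coproporphyrinogen oxidase (31.6 ± 3.68 CPM in CIE, 34.7 ± 4.07 CPM in Control, adjusted p = 0.763), *Uros*, uroporphyrinogen III synthase (log2 fold change -0.07, adjusted p = 0.900), and *Fech*, ferrochelatase, which inserts iron into heme (37.6 ± 3.32 and 35.8 ± 3.32 CPM, SD, n = 6 each, adjusted p = 0.865). These 3 did not pass under any of the 19 alternative fits.

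Among erythroid transcription factors, 1 of 7 tested fell and none rose (2 lower and 1 higher at an unadjusted p below 0.05). It was *Lmo2*, a partner of the *Tal1* and Gata factors in blood and endothelial cells, at 6.48 to 9.73 CPM in CIE and 11.2 to 12.7 CPM in Control (log2 fold change -0.62, SE 0.10, adjusted p = 0.0159). *Nfe2*, an erythroid and megakaryocyte factor, had 0.0677 ± 0.0696 CPM in CIE and 0.251 ± 0.0665 CPM in Control (SD, n = 6 each, log2 fold change -1.85, SE 0.64, adjusted p = 0.406). *Klf1*, the erythroid factor that binds CACCC motifs, differed in the other direction at 0.78 (SE 0.34, adjusted p = 0.574). *Gata1*, the defining factor of the lineage, was too low for the filter, with 0 to 4 counts per CIE rat and 1 to 5 per Control rat.

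None of 11 red cell membrane genes tested passed the adjusted test, and 1, *Kel*, had an unadjusted p below 0.05. *Kel*, a blood group protein, had 0 to 22 counts per CIE rat and 15 to 54 per Control rat, or 0.170 ± 0.131 and 0.481 ± 0.278 CPM (SD, n = 6 each), with a log2 fold change of -1.50 (SE 0.62, adjusted p = 0.542). *Aqp1*, a water channel also made by choroid plexus, had -0.87 (SE 0.51, adjusted p = 0.709). *Sptb*, the beta spectrin of red cells, which brain cells also express, had 160.5 to 290 CPM in CIE and 167 to 272 CPM in Control, with a log2 fold change of 0.21 (SE 0.14, adjusted p = 0.749). The summed list overlapped, at 454 to 621 CPM in CIE and 479 to 638 CPM in Control. *Sptb* made up a large part of it, while *Kel* and *Aqp1* stayed below 1 CPM in every rat. The sum therefore cannot show a change in such low rows.

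Other genes of red cell maturation gave no call among 14 tested, and none had an unadjusted p below 0.05. The list summed to 706 to 819 CPM in CIE and 712 to 830 CPM in Control, while *Ahsp* averaged 0.121 and 0.279 CPM. The absence of a call therefore cannot show that such low rows were unchanged. *Ahsp*, the chaperone of free alpha chains, had 0 to 20 counts per CIE rat and 1 to 52 per Control rat (log2 fold change -1.24, SE 0.73, adjusted p = 0.709). *Hemgn*, hemogen, had -0.58 (SE 0.34, adjusted p = 0.707), and *Slc25a38*, a mitochondrial carrier needed for heme synthesis, had 0.11 (SE 0.07, adjusted p = 0.762). Of 11 genes of hemoglobin clearance and iron handling none passed with edgeR (2 lower and 1 higher at an unadjusted p below 0.05), the nearest being *Slc40a1*, the iron exporter ferroportin, at 3.15 ± 0.413 CPM in CIE and 4.71 ± 0.622 CPM in Control (SD, n = 6 each, log2 fold change -0.58, SE 0.12, adjusted p = 0.0758). At much the same size *Slc40a1* was called by DESeq2 (-0.57, adjusted p = 0.0014), by limma-voom (-0.55, adjusted p = 0.0414) and by edgeR without CIE rat 3 (-0.65, adjusted p = 0.0294). *Ftl1*, ferritin light chain (-0.20, SE 0.08, adjusted p = 0.542), and *Cd163*, the macrophage receptor for hemoglobin bound to haptoglobin (0.77, SE 0.33, adjusted p = 0.558), did not pass either.

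**Figure D4:**
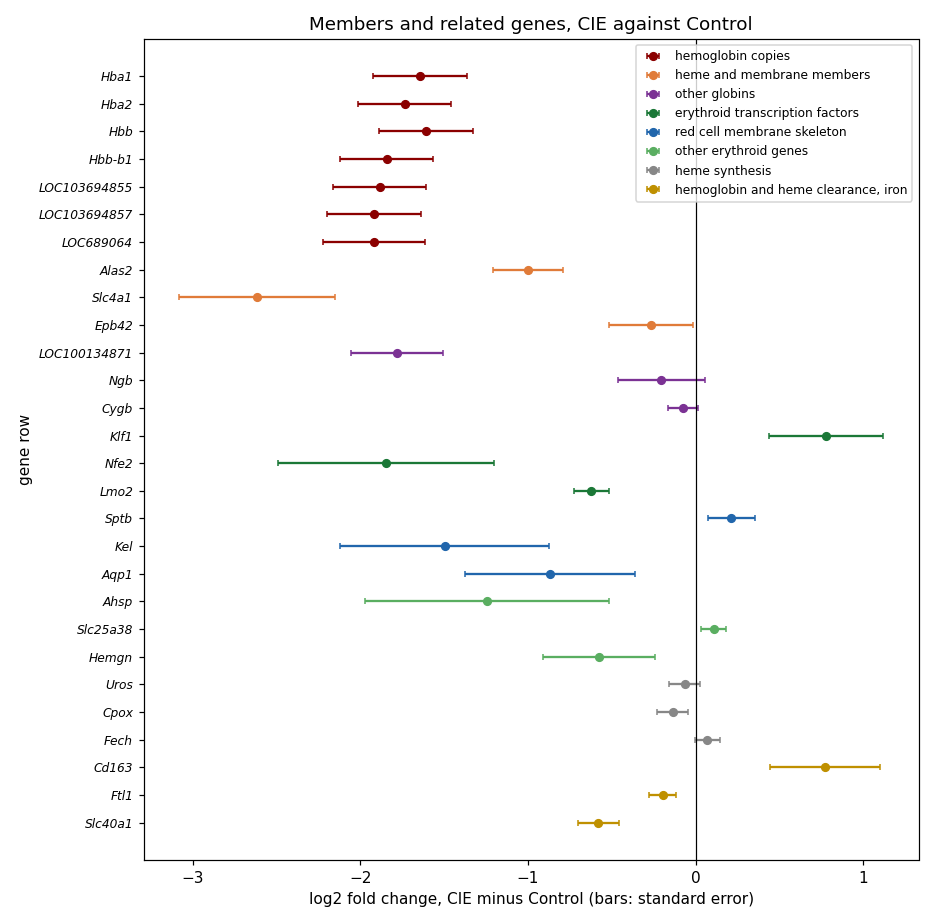
Points give the log2 fold change (CIE minus Control) of the 10 transcripts and of named genes from related lists, with bars for the standard error of the fit on 6 and 6 rats. The hemoglobin copies lie together between -1.92 and -1.61 with *LOC100134871* beside them, *Slc4a1* lies lower, and the heme synthesis enzymes lie near 0.

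**Figure D5:**
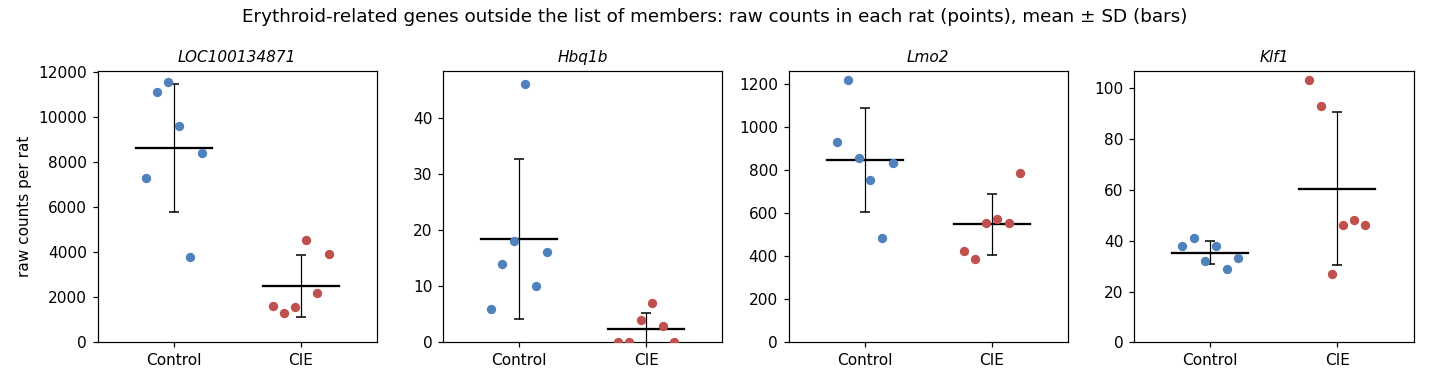
Raw counts of 4 erythroid-related genes outside the 10 are plotted for each rat, with bars for the mean ± SD of 6 Control and 6 CIE rats and each axis starting at 0. For *LOC100134871* only Control rat 11, the library with the fewest counts, lies among the CIE rats, *Hbq1b* is at 0 in 3 CIE rats, and *Klf1* is highest in a pair of CIE rats.

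Markers of other cells of blood and vessels were read beside these results, and their part in them was not tested. No platelet gene passed among 5 tested of 12 listed (none at an unadjusted p below 0.05 either), and the list summed to 3.97 to 6.86 CPM in CIE and 4.24 to 8.09 CPM in Control, so the groups overlapped, with *Ppbp* and *Gp1bb* listed at 0 in every rat. Log2 fold changes were -0.56 for *Pf4* (adjusted p = 0.739), 0.48 for *Gp1ba* (adjusted p = 0.803) and 0.87 for *Treml1* (adjusted p = 0.721). Of 17 leukocyte genes only 3 were high enough to test. *Il2rg*, a shared receptor chain of lymphocyte cytokines, fell (log2 fold change -1.53, SE 0.28, adjusted p = 0.0297), while *Lcn2* (-1.43, adjusted p = 0.639) and *Ltb* (-0.11, adjusted p = 0.945) did not pass. The leukocyte list summed to 1.96 to 2.96 CPM in CIE and 2.82 to 4.46 CPM in Control, again with overlap. The B cell marker *Cd79a* was listed at 0 in every rat, *S100a8* of neutrophils had 0 to 18 counts per CIE rat and 0 to 12 per Control rat, and *Cd3e* of T cells had 0 to 29 and 0 to 19.

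Endothelial markers moved in part. Of 14 tested, 3 fell and none rose, while 7 were lower and 2 higher at an unadjusted p below 0.05. Among all rows 0.258% were called lower, and 8.31% had such a p in either direction. *Pcdh12* fell from 2.13 ± 0.237 CPM in Control to 0.540 ± 0.145 CPM in CIE (log2 fold change -1.98, SE 0.20, adjusted p = 0.000683), *Cd93* from 10.8 ± 1.53 to 3.67 ± 1.22 CPM (log2 fold change -1.56, SE 0.20, adjusted p = 0.00675), and *Kdr*, a receptor of vascular endothelial growth factor, from 19.96 ± 3.42 to 10.6 ± 1.82 CPM (log2 fold change -0.92, SE 0.14, adjusted p = 0.0116; SD, n = 6 each). These 3 were put on the list with their difference already known. The summed endothelial list overlapped, at 358 to 462 CPM in CIE and 383 to 469 CPM in Control. Of 9 mural, meningeal and choroid plexus genes tested, the fibroblast collagens *Col1a1* (log2 fold change -1.04, SE 0.19, adjusted p = 0.0270) and *Col3a1* (-1.07, SE 0.19, adjusted p = 0.0243) fell, and *Pdgfrb* of pericytes had -0.45 (adjusted p = 0.0758). Of the 9, 4 were lower and none higher at an unadjusted p below 0.05, and the list summed to 81.2 to 131 CPM in CIE and 128 to 164 CPM in Control. The study had already reported *Col1a1* and *Col3a1* as lower in CIE in these libraries, so they are no independent evidence. At much the same size *Pdgfrb* was called by DESeq2 (-0.45, adjusted p = 0.00505), by limma-voom (-0.45, adjusted p = 0.0270) and by edgeR without CIE rat 6 (-0.53, adjusted p = 0.0131). The choroid plexus markers *Ttr* and *Kcnj13* were listed at 0 in every rat. None of the 11 central amygdala and neuron markers passed, and 2 were lower at an unadjusted p below 0.05. These were *Crh* (log2 fold change -0.45, unadjusted p = 0.0193, adjusted p = 0.472 by edgeR) and *Nts* (-0.46, unadjusted p = 0.0437, adjusted p = 0.584 by edgeR), beside *Snap25* (0.10, adjusted p = 0.732).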

How the data were processed

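Poly-A RNA-Seq was run on CeA punches of 12 rats (6 CIE, 6 Control), each giving 1 library. Reads were aligned by the authors with BWA (genome Rnor_6.0), counted by HTSeq and compared with DESeq2 1.26. The deposited values are raw counts of 37209 gene rows, of which 7757 were 0 in every rat. Annotation, strand and the handling of reads shared by copies are not given in the sources used here. The 10 members and the 11 other lists were chosen with earlier results of these data known.

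Counts were fitted in R 4.3.3 with edgeR 4.0.16 (quasi-likelihood F test, two-sided, TMM, filterByExpr, no covariates), with Benjamini-Hochberg adjustment over all rows tested. The SE was obtained as the size of the log2 fold change over the root of its F statistic. Correlations used log2 CPM with a prior count of 2. Named genes are the 10 members, in each other list those at 5% FDR and the 3 with the smallest p, and the 10 rows outside the members most like *Hba1*. Rows too low to test (*Hbq1b*, *Gata1*, *S100a8*, *Cd3e* and those listed at 0) were named after their counts were seen. From the membrane list 1 gene is not reported here. Gene identities, promoters and neighbours came from RefSeq (GRCr8). No 2 libraries were alike, since within-group pairs differed by at least 3.70 in the median ratio of squared difference to Poisson variance, where sampling alone gives 0.455. Alternatives were DESeq2 1.42.0, limma-voom (limma 3.58.1), other scalings and filters, summed copies, linear CPM, and leaving out each rat. Python 3.11.15, pandas 2.3.3, numpy 2.4.6, scipy 1.17.1, Biopython 1.88 and matplotlib 3.10.9 made tables and figures. The scripts were tested on simulated data.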

Additional observations from a re-analysis of the deposited data

Results flagged for a closer look

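In a group of 6 rats, the highest or lowest rat was set apart when its gap to the next one took more of the group's range than Dixon's 95% critical value allows. Of 108 group values checked, 11 were set apart, and chance alone gives about 1 in 20. The beta shares of 1 rat are parts of 1 whole and move together.

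In CIE rat 3, *Hbb* took 61.1% of beta counts (40.0% to 45.7% in the other CIE rats), *LOC100134871* took 25.7% (35.6% to 40.6%), *LOC689064* took 5.97% (8.18% to 9.28%) and *LOC103694857* took 2.47% (3.85% to 4.57%). In CIE rat 2, *LOC103694855* took 1.09% of beta counts (0.543% to 0.729% in the others), which is 39 counts. *Slc4a1* had 9.10 counts per 1000 hemoglobin counts in CIE rat 5 (0.541 to 3.66 in the others), and 11.2 in Control rat 7 (4.66 to 6.78 in the others).

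*Alas2* had 13.3 CPM in Control rat 9 (8.49 to 10.1 CPM in the other Control rats), and *Col1a1* had 37.1 CPM in the same rat (20.9 to 23.8 CPM). *Epb42* had 1.49 CPM in Control rat 8 (0.657 to 0.890 CPM in the others). *Lmo2* had 11.2 CPM in Control rat 12, below the 12.3 to 12.7 CPM of the others.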

How the results depend on the processing

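All 10 members kept their direction under every scaling, filter, tool and left-out rat that was run. Of the 10, 8 were called at 5% FDR under each scaling and without a filter, 7 when at least 10 counts were required in every rat (which removed *Slc4a1*), and 9 by DESeq2 and by limma-voom. Leaving out each rat in turn gave 5 to 9 called members, with 5 without CIE rat 1 and 5 without Control rat 9. The copies *Hba2*, *Hbb-b1*, *LOC103694855*, *LOC103694857* and *LOC689064* were called in 19 of 19 alternatives, *Hba1* and *Hbb* in 16, *Slc4a1* in 14 of 18 and *Alas2* in 4. From the other lists, 8 genes were called by edgeR, 11 by DESeq2 and 10 by limma-voom (*Slc40a1* and *Pdgfrb* among the added ones), and 4 to 11 without a rat, with 4 without Control rat 9 and 5 without CIE rat 2, 4 or 5 or Control rat 8. Of those 8, *Lmo2* was called in 17 of 19 alternatives, *Il2rg* in 11, and *Col1a1* and *Col3a1* each lost the call without several rats. *Ltb* ranged from -0.29 to 0.057 when each rat was left out, and changed direction without Control rat 8 (0.057). The correlation of *Hba1* with *Alas2* in CIE was 0.90 with DESeq2 size factors (adjusted p = 0.0556) and 0.90 with library size only (adjusted p = 0.0741). Over all rows, edgeR called 76, DESeq2 274 and limma-voom 234, and 71.1% of edgeR's calls and 58.0% of DESeq2's were lower in CIE. The cause of these changes was not tested. No paired analysis was possible because the groups share no rat numbers. Depth limits *Slc4a1*, *Epb42* and *LOC103694855* most, as they had under 100 counts in several rats.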
